A study of Mus with 9 samples.

Results

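The genes described here encode 8 adenylyl cyclases (Adcy1, Adcy2, Adcy3, Adcy5, Adcy6, Adcy7, Adcy8 and Adcy9), the neuropeptide PACAP (Adcyap1) and its receptor PAC1 (Adcyap1r1). They are the 10 of 22206 probe sets on the array whose only gene symbol is 1 of these 10 names, and each gene had 1 probe set. Within the set, Adcy3, Adcy6 and Adcyap1r1 were selected on their group averages, which were lower with trigonelline (TG) than without it, so their values in that comparison are a description. Earlier results for all 10 genes were known when the set was chosen. Hippocampal RNA was hybridized to Clariom S Mouse arrays, with 3 arrays in each of 3 groups. SAMR1 and SAMP8 mice received vehicle by mouth, and TG-treated SAMP8 mice received TG, a plant alkaloid, at 5 mg/kg for 30 days, continued through 8 further days of behavioral testing. By the records all groups were then trained in the Morris water maze, TG was dissolved in water and the controls received saline. The methods describe the SAMP8 mice as 16-week-old males and state no separate age or sex for SAMR1. The same age was taken for SAMR1 here. SAMP8 is an inbred line with accelerated senescence and early memory decline, and SAMR1 is the related senescence-resistant line used as its control. The lines differ at many loci, so the strain comparison does not isolate 1 gene.

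The methods name water and not saline as the vehicle. The records list 3 arrays per group, while the text of the series mentions duplicates. Each record also carries a description of a macrophage cell line, which was set aside because titles and sources name these mouse groups and the tissue is given as hippocampus. The deposited tables give 1 average per group on the log2 scale and no values for single arrays. The tables also carry the authors' own test values for both of their comparisons, which were not used here. The differences below are therefore given with no SD, standard error or test, as values without a replicate check. The direction of each difference follows the column names of the tables, and for Adcy6 and Adcyap1r1 with TG it is opposite to the direction in the study's text. For Igf2 and Prkcd, which the study lists among its genes most lowered by TG, the direction was the same, with differences of -1.89 and -1.5. A difference of 1 means a doubling, a group average is rounded to 2 decimals, and a difference can be off by 0.01 from rounding. Group medians over all probe sets were 6.09 (SAMR1), 6.04 (SAMP8) and 6.07 (TG-treated SAMP8). The middle 90% of all differences ran from -0.53 to 0.56 for TG-treated SAMP8 vs SAMP8 and from -0.63 to 0.58 for SAMP8 vs SAMR1. Both comparisons use the same SAMP8 averages with opposite sign, so a high or low SAMP8 average moves them in opposite directions. All 10 genes lay above the lowest 25% of probe sets by mean level, which ended at 4.40.

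Adenylyl cyclases are membrane enzymes that make the second messenger cAMP from ATP when a receptor activates the stimulatory G protein Gs. The isoforms differ in what else controls them: calcium with calmodulin, inhibitory G proteins, or G protein beta-gamma subunits. PACAP is a neuropeptide that raises cAMP through PAC1, a receptor abundant in the brain and in the dentate gyrus of the hippocampus. cAMP then acts on protein kinase A, on the exchange factors Epac1 and Epac2 and on cyclic nucleotide-gated channels, and this route is well known for its part in long-lasting synaptic potentiation.

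With TG the receptor gene and 8 of 8 cyclase genes had lower averages than in nontreated SAMP8, and only the PACAP gene had a higher one. After the median of genes of like level and like genomic span was subtracted (the correction for level and span), Adcy2 and Adcy5 were no longer lower, at 0.02 and 0.06. Past a fold of 1.5 (0.58 on the log2 scale) lay 1 gene that was lower, Adcyap1r1, and 1 that was higher, Adcyap1. Over all probe sets, 3.74% were lower and 4.48% higher by more than this fold, and 48.3% were lower at any size. The median difference of the 10 genes was -0.30, and that of all probe sets was 0.01. Since part of the set was chosen by this comparison, nothing is read from these counts. At lower and higher limits, 63.4% of all probe sets passed a fold of 1.1 in either direction, 29.3% passed 0.32 on the log2 scale and 0.761% passed a fold of 2, and 9, 5 and 0 of the 10 genes did. At any size, 50% of all probe sets were higher.

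Between the strains, 8 of the 10 genes had a higher average in SAMP8 than in SAMR1, among them 7 of the 8 cyclases. Adcy8 and Adcy6 were the 2 genes past 1.5-fold, both higher in SAMP8, and 0 genes were lower by that much. Of all probe sets, 5.0% were higher and 6.08% lower past 1.5-fold, and 49.5% were higher at any size. At any size, 49.0% of all probe sets were lower. The median difference of the 10 genes was 0.25, against 0.00 for all probe sets, and 0.12 after quantile normalization of the group averages. Folds of 1.1 and 2 were passed by 65.5% and 2.22% of all probe sets and by 9 and 1 of the 10 genes, and the limit of 0.32 by 32.5% and by 4 genes. The selection of Adcy3, Adcy6 and Adcyap1r1 on lower averages with TG also favours high SAMP8 averages. Nothing is therefore read from these strain counts or from the median.

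In TG-treated SAMP8 vs SAMR1, 6 genes had a higher and 4 a lower average, against 48.1% and 50.4% of all probe sets. The median difference of the 10 genes was 0.17, and 0.09 after quantile normalization of the group averages. Past 1.5-fold lay 1 gene that was higher, Adcy8, and 0 that were lower, against 5.62% and 4.83% of all probe sets (10.5% together). Folds of 1.1 and 2 were passed by 64.9% and 1.81% of all probe sets and by 7 and 0 of the 10 genes, and the limit of 0.32 by 32.1% and by 5 genes. The same selection favours low averages with TG, so nothing is read from these counts either.

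**Figure D1:**
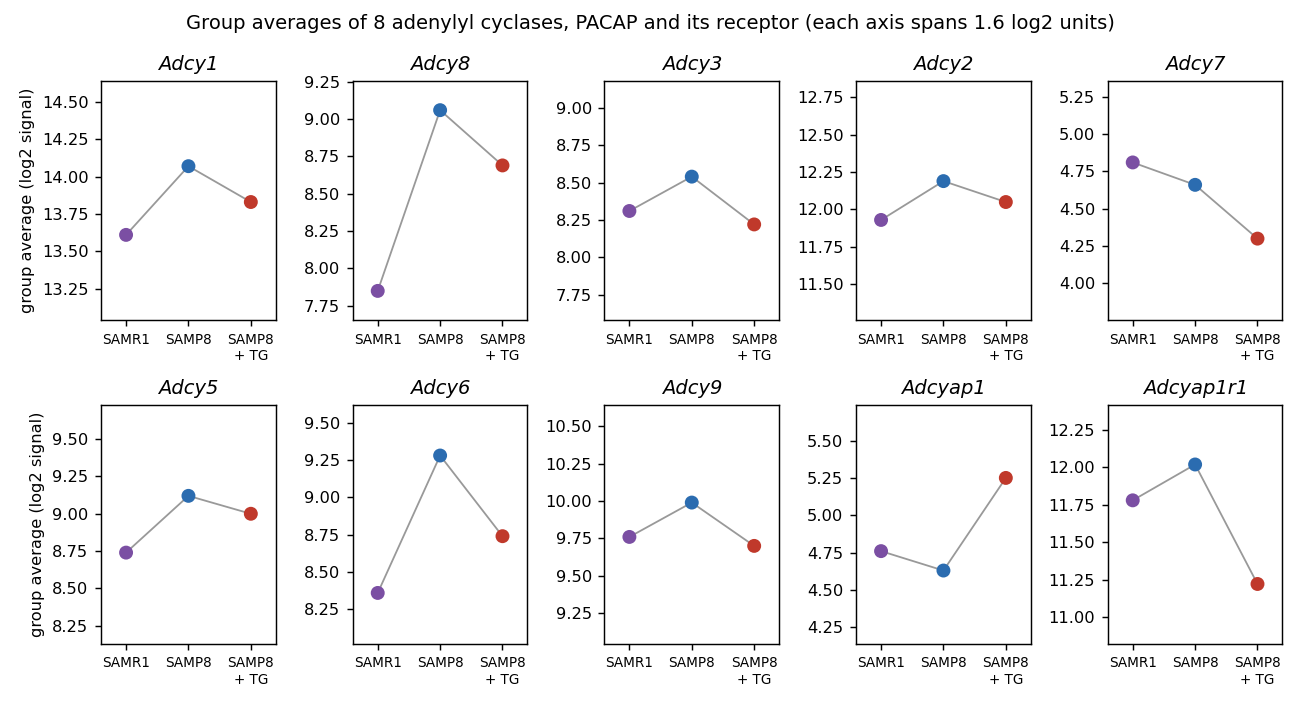
Group averages (log2 signal, vertical axis) of the 8 cyclases, PACAP (Adcyap1) and PAC1 (Adcyap1r1) in SAMR1, SAMP8 and TG-treated SAMP8 mice; each point is the authors' average of 3 arrays and no error is known. Each axis spans the same distance but starts at its own level: Adcy8 is at 7.85 in SAMR1 and 9.06 in SAMP8, and Adcyap1r1 is at 12.02 in SAMP8 and 11.22 with TG.

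Adcyap1r1 encodes PAC1, the receptor with high affinity for PACAP, and lies on chromosome 6 from 55451501 to 55501455 (GRCm38). Its group averages were 11.78 (SAMR1), 12.02 (SAMP8) and 11.22 (TG-treated SAMP8). The TG-treated average was the lowest, in a gene selected on being lower with TG. It was lower than in SAMP8 by a factor of 1.74 (-0.80 on the log2 scale), and 1.01% of all probe sets had a lower difference. Against SAMR1 it was lower by 0.56 on the log2 scale, while SAMP8 was 0.24 above SAMR1, and 0.09 to 0.12 above it after quantile normalization, removal of the trend on level or the correction for level and span. Among 276 probe sets of like level and like genomic span, whose median difference with TG was -0.13, 1.09% were lower than Adcyap1r1.

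Adcyap1 encodes the precursor of PACAP and lies on chromosome 17 from 93198245 to 93206541. Its averages were 4.76 (SAMR1), 4.63 (SAMP8) and 5.25 (TG-treated SAMP8), not far above the limit of the lowest 25% of probe sets. The ligand thus ran opposite to its receptor with TG, higher by a factor of 1.54 (0.62 on the log2 scale). At this level, the middle 90% of 2221 probe sets ran from -0.46 to 0.62, so the difference sat at the edge of the usual range. It passed the fold of 1.5 as deposited and missed it after quantile normalization and after a smooth trend on level was removed (lowest value 0.55). The vehicle groups differed by -0.13 (SAMP8 minus SAMR1). This was -0.01 to -0.03 after quantile normalization, removal of the trend on level or the correction for level and span.

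**Figure D2:**
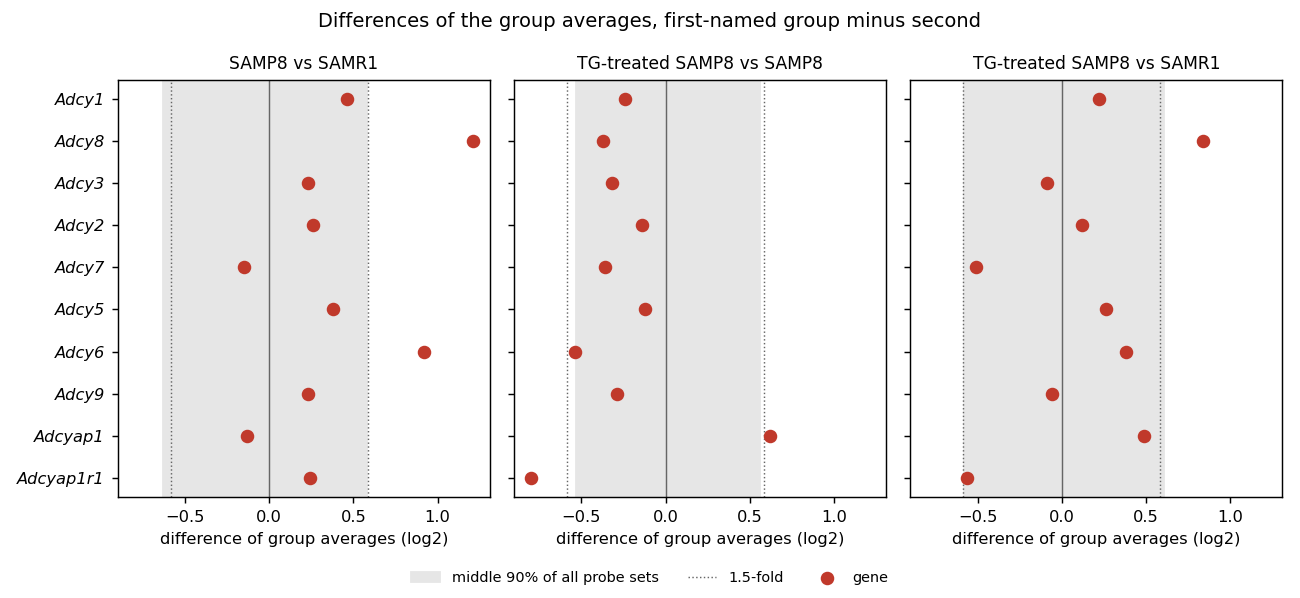
Difference of the group averages (log2, horizontal axis) of each gene in the 3 comparisons, with the first-named group minus the second; grey marks the middle 90% of all probe sets and dotted lines a fold of 1.5. Adcy8 at 1.21 and Adcy6 at 0.92 lie right of the band between the strains. With TG, Adcyap1 at 0.62 lies right of it and Adcyap1r1 at -0.80 and, barely, Adcy6 at -0.54 lie left, and against SAMR1 Adcy8 at 0.84 lies right.

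Adcy1 and Adcy8 encode the cyclases that calcium and calmodulin stimulate most directly and that are tied to calcium entry at hippocampal synapses. Adcy8, on chromosome 15 from 64699035 to 64922296, had averages of 7.85 (SAMR1), 9.06 (SAMP8) and 8.69 (TG-treated SAMP8). Both SAMP8 groups were well above SAMR1. The strain difference of 1.21 on the log2 scale, a factor of 2.31, was the largest of the 10 genes, and 0.41% of all probe sets were higher. With TG the average was lower by 0.37 on the log2 scale and stayed 0.84 above SAMR1, and the difference with TG was -0.19 after the correction for level and span. Adcy8 was the only gene of the set past 1.5-fold in TG-treated SAMP8 vs SAMR1, except that Adcyap1r1 also passed, as a lower average, after quantile normalization or removal of the trend on level. Adcy1, on chromosome 11 from 7063433 to 7178506, had averages of 13.61, 14.07 and 13.83 in SAMR1, SAMP8 and TG-treated SAMP8. The order of the groups was that of Adcy8 with smaller steps, 0.46 between the strains and -0.24 with TG. Among 479 probe sets of like level and span, 40.5% had a lower difference with TG than Adcy1.

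Adcy3, known from the cilia of neurons and from odour signalling, lies on chromosome 12 from 4133116 to 4213525. Its averages were 8.31 (SAMR1), 8.54 (SAMP8) and 8.22 (TG-treated SAMP8), a span of 0.32 in all. The difference with TG was -0.32, and 14.2% of all probe sets were lower. Among 306 probe sets of like level and span, 27.5% were lower, and the difference was -0.18 after their median was subtracted. Adcy7 (-0.36) and Adcy8 (-0.37), which had not been selected on lower averages, were lower with TG by slightly more than Adcy3 as deposited, and at -0.39 and -0.19 after that correction. In TG-treated SAMP8, Adcy3 stood 0.09 below SAMR1.

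Adcy2 and Adcy7 encode cyclases that G protein beta-gamma subunits stimulate together with Gs. Adcy2, on chromosome 13 from 68620043 to 68999600, had the narrowest range of the 10 genes, with averages of 11.93 (SAMR1), 12.19 (SAMP8) and 12.05 (TG-treated SAMP8). Its difference with TG was -0.14, and 53.0% of the probe sets of like level and span were lower than that. Adcy7, on chromosome 8 from 88272190 to 88329965, had low averages of 4.81, 4.66 and 4.30 in the same order of groups. Its mean level of 4.59 was not far above the limit of the lowest 25% of probe sets (4.40), and its TG-treated average was below that limit. Adcy7 was the only cyclase of the set that was lower in SAMP8 than in SAMR1, by 0.15 on the log2 scale, and by 0.02 to 0.07 after quantile normalization, removal of the trend on level or the correction for level and span. The TG-treated group was 0.51 below SAMR1, against a range of -0.57 to 0.50 for the middle 90% of probe sets of its level. Adcy4, the third cyclase of this class and not part of the set, was in the lowest 25% by level, with averages of 3.92, 4.6 and 4.16.

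Adcy5 and Adcy6 encode the closely related cyclases that calcium and inhibitory G proteins restrain. Adcy6, on chromosome 15 from 98589978 to 98610287, had averages of 8.36 (SAMR1), 9.28 (SAMP8) and 8.74 (TG-treated SAMP8). SAMP8 was higher than SAMR1 by a factor of 1.89 (0.92 on the log2 scale), and 1.07% of all probe sets were higher. With TG it was lower by a factor of 1.45 (-0.54), just short of the fold of 1.5, and it stayed 0.38 above SAMR1. Adcy6 was selected on being lower with TG, which also favours a high SAMP8 average, so these values and ranks are a description. Adcy6 has a short gene for a cyclase, and 7.69% of 234 probe sets of like level and span were lower with TG. Adcy5, on chromosome 16 from 35154494 to 35305743, had averages of 8.74, 9.12 and 9.0. Adcy5 was thus 0.38 higher in SAMP8 than in SAMR1. This was 0.23 to 0.25 after quantile normalization, removal of the trend on level or the correction for level and span. With TG Adcy5 was 0.12 lower, which became 0.06 higher after the correction for level and span.

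Adcy9, the membrane cyclase least sensitive to forskolin, lies on chromosome 16 from 4284886 to 4437236. Its averages were 9.76 (SAMR1), 9.99 (SAMP8) and 9.70 (TG-treated SAMP8). The group with TG differed from SAMR1 by -0.06 (-0.15 after quantile normalization and -0.11 after removal of the trend on level). The difference with TG from SAMP8 was -0.29 (-0.12 after the correction for level and span). Adcy10, the soluble cyclase that bicarbonate stimulates, is not part of the set. It had averages of 4.38, 4.06 and 4.59, in the lowest 25% by level, and ran in the order of Adcyap1, with SAMP8 lowest.

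The orders of the groups are those of the averages alone, and which neighbouring groups differ beyond the spread over arrays was not tested here. In these tissue samples, fewer cells of a type and less RNA per cell cannot be told apart.

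Over all probe sets, the difference varied with the size of the gene. All probe sets that could be placed on the annotation (97.1%) were divided into 10 classes by the genomic span of their gene. With TG, the median difference went from 0.09 in the shortest class to -0.12 in the longest, where 66.0% of 2157 probe sets were lower. Between the strains it went from -0.11 to 0.09. Of the 10 genes, 9 were longer than the median span of 17.2 kb, and Adcy1, Adcy2, Adcy5, Adcy8 and Adcy9 fell in the longest class. When the median of the probe sets of like level and like span was subtracted, the median difference of the 10 genes with TG went from -0.30 to -0.15. Adcyap1r1 (-0.67), Adcy6 (-0.46) and Adcy7 (-0.39) were then the lowest, while Adcy1 was at -0.08. Adcyap1r1 and Adcy6 had been selected on lower averages in this comparison, so their place is a description only. Between the strains, Adcy8 kept 1.06 and Adcy6 0.75 after the same step. The part of gene length in these differences was not tested.

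**Figure D3:**
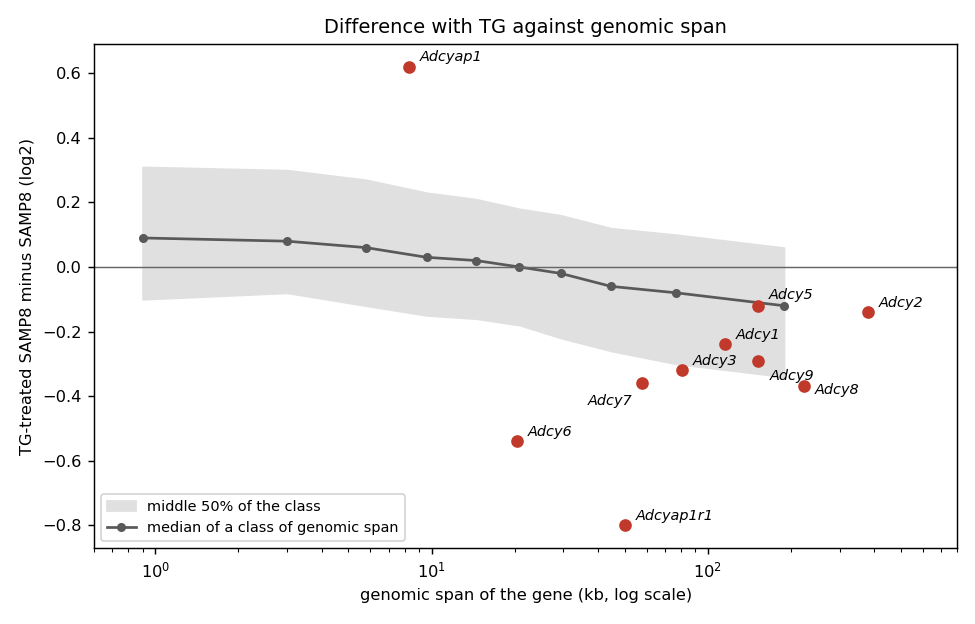
Difference with TG (TG-treated SAMP8 minus SAMP8, log2, vertical axis) against the genomic span of the gene (kb, log scale) for the 10 genes (red), with the median (line) and middle 50% (grey) of all probe sets in 10 classes of span. The line runs from 0.09 in the shortest class to -0.12 in the longest. Adcyap1 lies above the middle 50% of its class, Adcyap1r1, Adcy6, Adcy7, Adcy8 and Adcy3 lie below that of theirs, and Adcy5 at 151.2 kb lies on the line.

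Other genes of the route to and from cAMP were counted from lists of 81 genes in all, of which 80 had a probe set of their own. With TG, 2 of these 80 were higher and 6 lower past 1.5-fold, or 10% together against 8.21% of all probe sets. Their median difference was -0.02, and it was 0.04 after the correction for level and span. Between the strains, 7 were higher and 1 was lower past 1.5-fold, or 10% against 11.1%, with a median of 0.17 (0.08 after the same correction). By direction, 2.5% of the 80 were higher and 7.5% lower with TG, against 4.48% and 3.74% of all probe sets. Between the strains 8.75% were higher and 1 of the 80 was lower, against 5.0% and 6.08%. The same shares of all probe sets apply to the counts of single lists below.

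Of the 11 other ligands and receptors of the PACAP family, 1 was higher with TG past 1.5-fold and 0 were lower. This was Vip, which encodes the related peptide VIP of hippocampal interneurons, at 7.23 (SAMR1), 8.69 (SAMP8) and 9.43 (TG-treated SAMP8). Vip was also the highest of the family between the strains, by 1.46 on the log2 scale. Ghrh, at -0.81, was lower past 1.5-fold in the same comparison. Of the 11, 5 were higher and 6 lower at any size. Vipr1, a receptor that VIP and PACAP share, was at 6.85, 7.10 and 7.08, and Vipr2, the other shared receptor, was at 4.49, 4.38 and 4.21. Their differences with TG were -0.02 and -0.17, and Vipr2 was in the lowest 25% by level.

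Among 13 G protein alpha subunits, Gnal, which encodes the Gs-like subunit Golf, was the only one past 1.5-fold. Its averages were 11.18 (SAMR1), 11.91 (SAMP8) and 11.07 (TG-treated SAMP8), so that the differences were 0.73 and -0.84. Gnas, the gene of Gs itself, was at 16.72, 16.70 and 17.12, higher with TG by 0.42. Of the subunits of the inhibitory Gi/o class, Gnai1 (0.08) and Gnai2 (0.14) were higher with TG, and Gnai3 (-0.15), Gnaz (-0.17) and Gnao1 (-0.31) were lower.

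The 15 phosphodiesterases that break down cAMP had a median difference of -0.01 with TG, with 7 higher and 8 lower, and the median was 0.15 after the correction for level and span. Pde7b, at 7.29, 7.52 and 6.91, was the only one past 1.5-fold, and Pde4a, at 0.28, was the highest. Of 15 effectors of cAMP, 1 was past 1.5-fold with TG. Prkar2b, the regulatory subunit RII-beta of protein kinase A, was at 9.80, 10.07 and 9.42, and the catalytic subunits stood apart from each other, with Prkaca at -0.47 and Prkacb at 0.20. In SAMP8, 13 of the 15 effectors were higher than in SAMR1, against 49.5% of all probe sets, with a median of 0.25 and 0 past 1.5-fold. After quantile normalization 10 were higher, with a median of 0.12, and 10 were also higher after removal of the trend on level or the correction for level and span.

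The A-kinase anchoring proteins, which hold protein kinase A near cyclases and channels, had the lowest median of the lists with TG, -0.32 over 13 genes (-0.19 after the correction for level and span). Akap6 (-0.67) and Akap13 (-0.62) were lower past 1.5-fold, and Akap2 (0.60) was higher, against 3.74% and 4.48% of all probe sets. Between the strains 4 of the 13 were higher past 1.5-fold and 0 were lower, against 5.0% and 6.08% of all probe sets. The median of the 13 between the strains was 0.28, and 0.13 after the correction for level and span. Akap5, the postsynaptic anchor that binds cyclases and AMPA receptors, was at 8.92 (SAMR1), 9.53 (SAMP8) and 9.09 (TG-treated SAMP8). Akap7 was at 11.24, 12.04 and 12.43. Among CREB, its related transcription factors and their coactivators at the end of the route, the coactivator Crtc1 was the only one of 8 past 1.5-fold. It was at 14.17, 14.36 and 13.70. Creb1 was at 9.0, 8.93 and 9.13. The 3 calmodulin genes, whose protein carries the calcium signal to Adcy1 and Adcy8, had a median of 0.14 with TG (0.03 after quantile normalization), with 0 past 1.5-fold. Between the strains their median was 0.04, and from -0.03 to 0.15 under the other scalings, so it has no settled sign.

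**Figure D4:**
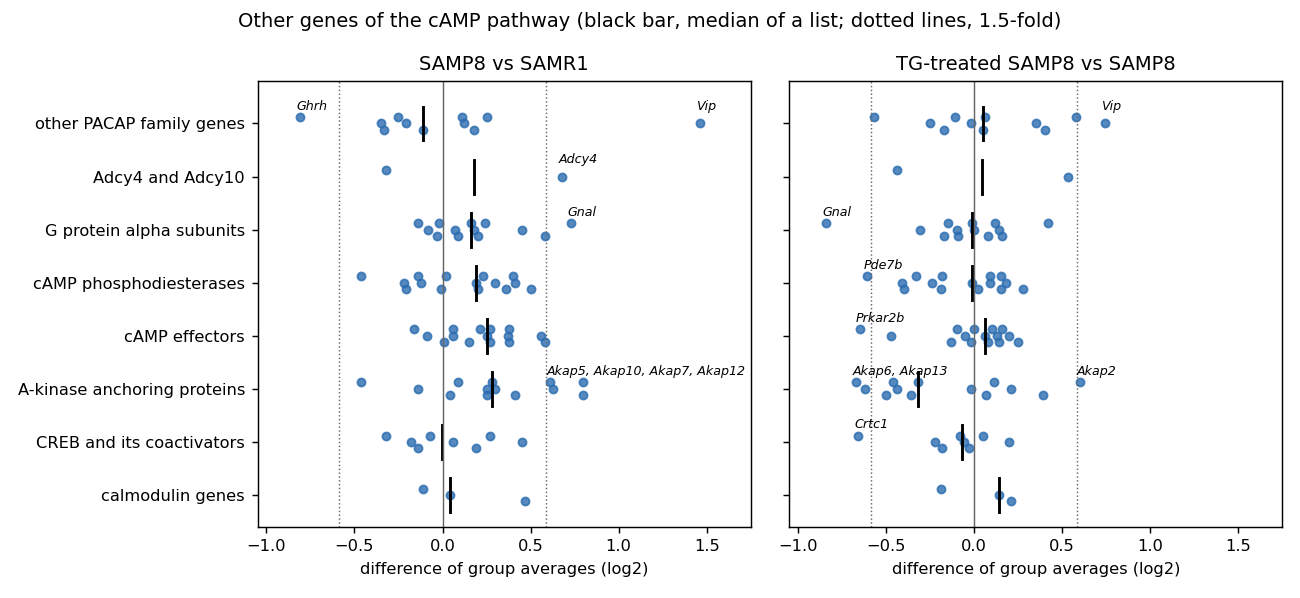
Difference of the group averages (log2, horizontal axis) of the other genes of the cAMP route, 1 point per gene and 1 row per list, between the strains (left) and with TG (right); black bars are list medians and dotted lines a fold of 1.5. With TG, Gnal at -0.84 is the lowest gene and Vip at 0.74 the highest, and the anchoring proteins have the lowest median, -0.32.

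Markers of hippocampal neurons and of neighbouring regions were read beside these results, since cyclases and PAC1 differ between brain regions. Neurod6, a marker of pyramidal neurons, was at 14.86, 14.85 and 14.88 in SAMR1, SAMP8 and TG-treated SAMP8, and Wfs1, another, was at 10.79, 11.23 and 10.75, lower with TG by 0.48. Camk2a was at the highest value of the tables in all groups, so it cannot show a difference. Prox1, a marker of dentate granule cells, was at 11.26, 11.85 and 11.00, lower with TG by 0.85, and Calb1, of granule and some pyramidal cells, was lower by 0.38. Dsp (-0.28) and Bhlhe22 (-0.08) were lower too, while Neurod2 (0.16) and Fibcd1 (0.05) were higher with TG. The 9 hippocampal markers measured had a median difference with TG of -0.08 (-0.18 over 8 without Camk2a, a choice made after seeing the data, and -0.16 after the correction for level and span), with 3 higher and 5 lower and 1 of 9 lower past 1.5-fold. Between the strains their median was 0.31 (0.20 after the same correction), with 2 higher past 1.5-fold. Of 10 markers of thalamus and habenula, 3 were lower with TG past 1.5-fold and 0 were higher, with a median of -0.19. Between the strains 4 were higher past 1.5-fold, with a median of 0.46. Beside these and the other marker counts, 3.74% of all probe sets were lower and 4.48% higher with TG past 1.5-fold. Between the strains, 6.08% of all probe sets were lower and 5.0% higher by that much. Zic1 was at 10.91, 11.47 and 9.56, and Prkcd at 10.85, 11.03 and 9.53, the lowest differences of the list. Plekhg1 (-1.06), Amotl1 (-0.37) and Calb2 (-0.31) were also lower with TG, and the other 5 lay between -0.07 (Tac2) and 0.13 (Rgs16). The 10 striatal markers had a median of -0.06, with Drd2 (4.29, 4.63 and 3.67) lower past 1.5-fold. Of the thalamic and hippocampal markers 0 were in the lowest 25% by level, and of the striatal markers 1 was, namely Drd2. Markers of meninges had a median of -0.16 with TG, with 4 of 10 lower and 0 higher past 1.5-fold. Those of choroid plexus had a median of 0.17 (0.1 after quantile normalization), with 2 of 10 higher and 1 lower past that fold. Oligodendrocyte markers were at 0.38 and microglia markers at -0.17, each with 1 of 8 higher and 0 lower past it. Astrocyte markers were at -0.07 (-0.02 after the correction for level and span), with 0 past it. Of 8 astrocyte markers, 8 were higher in SAMP8 than in SAMR1 (5 after a trend on level was removed), with Gfap at 11.08, 12.03 and 11.92. The part of regional or cell type makeup in the differences of the cyclases and PAC1 was not tested.

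The genes whose pattern was most like those of Adcy3, Adcy6 and Adcyap1r1 were sought by the distance between their 2 differences (strain and TG), over 3 group averages and among genes within 1 log2 unit of the same level. For Adcyap1r1 the nearest of 1594 genes were Syn3 (0.21 between the strains and -0.73 with TG), Mamld1 and Med14, and 3 genes lay within 0.1. For Adcy6 they were Mmachc (0.92 and -0.54), Rab3ip and Fbxo18, and 6 of 3246 genes lay within 0.1. For Adcy3 they were Crebrf (0.23 and -0.33), Kdm3b and Slc19a2, and 114 of 3442 genes lay that near. More genes thus lay near Adcy3, whose differences are closer to 0, than near Adcy6 or Adcyap1r1.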

How the data were processed

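Gene expression was measured in the hippocampus of SAMR1, SAMP8 and TG-treated SAMP8 mice, 3 arrays per group by the sample records. The authors summarized the intensities of the Clariom S Mouse arrays with the SST-RMA method of TAC and deposited log2 group averages, on annotation of mm10. The deposited tables also hold the authors' fold changes, p-values and adjusted p-values, which were not used. Differences of the deposited group averages were computed here, and both tables list identical averages for SAMP8. Genes past a fold of 1.5 were counted. No test was run, since values for single arrays were not used here, and 3 arrays per group limit how precise an average is. One probe set per gene was taken, the highest in mean level where a gene had several. Positions and genomic spans are from the RefSeq annotation of GRCm38. The genes named are all members, listed genes past 1.5-fold or at the end of a list, and the 3 genes nearest in pattern; Vipr1, Vipr2, Gnai1, Gnai2, Gnai3, Gnaz, Prkaca and Prkacb and the single markers were chosen after their values were seen. The members and lists were chosen with earlier results of these data known. Alternatives were other fold limits, median centring, quantile normalization, a lowess trend on level (fraction 0.3), the median of 10 classes of level by 10 of span, a filter on the lowest 25%, and counting single-symbol probe sets. The steps were tested on simulated data. Python 3.11.15, numpy 2.4.6, pandas 2.3.3, statsmodels 0.14.6 and matplotlib 3.10.9 were used.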

Additional observations from a re-analysis of the deposited data

How the results depend on the processing

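No paired analysis was possible because the tables give 1 average per group, and for the same reason no array could be left out. Of the 30 differences of single genes, 28 kept their sign and 28 their side of the 1.5-fold limit under the 4 scalings (averaging probe sets could change nothing, with 1 per gene); the exceptions were Adcy2 and Adcy5 (sign, with TG), Adcyap1 (limit, with TG) and Adcyap1r1 (limit, against SAMR1). In size, 15 of the 30 moved by over 1.5 times or turned sign after the correction for level and span, 11 after quantile normalization, 10 after removal of a trend on level and 1 after median centring. After quantile normalization the strain differences of Adcy2, Adcy3, Adcy5, Adcy9 and Adcyap1 were 0.14, 0.1, 0.24, 0.07 and -0.01, and Adcy2, Adcy3 and Adcy9 in TG-treated SAMP8 vs SAMR1 were at 0.01, -0.16 and -0.15. For TG-treated SAMP8 vs SAMP8, 2 genes were past 1.5-fold, 1 after quantile normalization or a trend on level, and 9, 5 and 0 at limits of 1.1-fold, 0.32 on the log2 scale and 2-fold. The median of -0.30 became -0.15 after the correction for level and span. For SAMP8 vs SAMR1 the count was 2, and 9, 4 and 1 at the other limits. The median of 0.25 became 0.12 after quantile normalization and 0.13 after a trend on level or the correction for level and span. For TG-treated SAMP8 vs SAMR1 the count was 1, and 2 after quantile normalization or a trend on level, and 7, 5 and 0 at the other limits. The median of 0.17 became 0.09 after quantile normalization. The shares of all probe sets past 1.5-fold stayed within 1.5 times under both filters. How far each gene stood above background is not known from these tables.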
